A study of Mus musculus with 20 samples.

Results

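AP-1 transcription factors were followed in mouse cerebral cortex after prenatal cocaine. The 8 genes Fos, Fosb, Fosl1, Fosl2, Jun, Junb, Jund and Atf3 were taken by their symbols, with every probe whose only gene symbol in the platform annotation was one of them. This gave 8 genes of 16504 named on the array, read by 9 of its 22575 probes, 2 of them for Fos. All 9 carried a measured value on each of the 20 arrays. The study exposed Swiss Webster mice before birth and asked which transcripts of the cortex differed afterwards. Dams were injected under the skin with 20 mg/kg cocaine hydrochloride or with saline 2 times a day between embryonic days 8 and 18, and saline dams were pair-fed to the cocaine dams. Each two-colour Agilent array held RNA of cocaine-exposed tissue in channel 1 and of saline-exposed tissue in channel 2, with 5 µg of total RNA per channel. The 4 groups of 5 arrays were adult occipital, adult frontal, fetal occipital and fetal frontal cortex.

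Adult animals were offspring of postnatal day 30, injected only through the dam. Fetal cerebral wall was taken on embryonic day 18, 1 h after the last injection, with 2 fetuses in each channel. The frontal piece lay in front of the striatum and the occipital piece behind the level of the hippocampus, and sodium pentobarbital anaesthesia preceded every dissection. Within a region each array had litters of its own, per the labels. The number of adult animals per channel is not given in the labels, nor whether both regions came from the same animals. Both fetal occipital replicates 1 and 1b carry the number 1 in their titles. For fetal frontal replicate 1 the cocaine channel is labelled with both dyes at once.

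AP-1 is a dimer of basic leucine zipper proteins. Fos proteins (Fos, Fosb, Fosl1, Fosl2) pair with Jun proteins (Jun, Junb, Jund), whereas Jun proteins also pair with one another, and the dimers bind the AP-1 site of many genes. In cortical neurons Fos, Fosb and Junb are immediate early genes: calcium, cyclic AMP and growth factor signals switch them on within minutes through CREB, serum response factor and Elk factors, and their transcripts are short-lived. Jun is further activated by JNK phosphorylation in stressed or dying neurons. Jund is expressed steadily and Fosl2 is a slower, longer-lived Fos protein, while Fosl1 is low in unstimulated brain. Fosb also yields the stable splice form ΔFosB that builds up in striatal neurons of adults under repeated cocaine, and Atf3 is a stress-induced relative that pairs with Jun proteins.

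The promoters of Fos, Fosb and Jun are shown because these 3 genes are textbook cases of stimulus-driven transcription and each window holds a short motif related to that response. The RefSeq promoter table (GRCm38.p6) held 7 of the 8 genes, and Fosl1 was not in it. The Fos window is chr12:85473640-85473939 on the plus strand, the Fosb window chr7:19309996-19310295 on the minus strand and the Jun window chr4:95052173-95052472 on the minus strand, each of 300 bases around the annotated gene start and written 5′ to 3′. Capitals mark TGACG, the first letters of a cyclic AMP response element, in Fos and Fosb, and TGACATCA, the AP-1-like element through which the Jun gene is known to respond to its own product, in Jun.
Fos: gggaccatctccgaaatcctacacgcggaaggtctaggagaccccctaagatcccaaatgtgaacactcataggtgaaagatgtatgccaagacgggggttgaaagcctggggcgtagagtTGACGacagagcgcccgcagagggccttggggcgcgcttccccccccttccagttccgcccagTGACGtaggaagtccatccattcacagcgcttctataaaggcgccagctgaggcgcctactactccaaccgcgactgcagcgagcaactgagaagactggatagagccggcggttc
Fosb: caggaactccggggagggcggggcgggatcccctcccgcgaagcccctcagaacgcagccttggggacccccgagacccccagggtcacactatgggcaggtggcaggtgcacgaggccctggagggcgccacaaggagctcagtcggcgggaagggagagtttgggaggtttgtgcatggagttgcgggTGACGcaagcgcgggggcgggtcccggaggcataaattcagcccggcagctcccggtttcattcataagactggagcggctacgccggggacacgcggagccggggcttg
Jun: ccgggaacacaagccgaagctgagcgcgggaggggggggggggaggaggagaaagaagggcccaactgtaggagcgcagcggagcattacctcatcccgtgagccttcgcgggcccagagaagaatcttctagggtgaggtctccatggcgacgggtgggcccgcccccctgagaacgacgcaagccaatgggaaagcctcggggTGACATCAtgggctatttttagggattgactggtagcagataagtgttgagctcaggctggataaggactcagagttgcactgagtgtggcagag
TGACG stood 129 and 66 bases before the start of Fos and 60 bases before that of Fosb, and TGACATCA 45 bases before that of Jun. Among 27025 mouse promoter windows of the same length, searched on both strands, 21.02% held TGACG and 3.76% held TGACATCA. The full cyclic AMP response element TGACGTCA, which contains TGACG, was in 1.88% of the windows and the canonical AP-1 site TGACTCA in 5.17%. Neither was found in the windows of the 7 genes, nor was the serum response CArG box, which 1.57% of all windows held. Sequence outside the windows was not searched, so sites further from a gene start could not be found. TGACG was also found in the windows of Junb and Atf3, on the minus strand in Atf3. Of the other motifs searched, TATAAA (14.2% of windows) was found in Fos and Junb and CCAAT (37.9%) in Jun, Junb and Atf3, while Fosl2 and Jund held none. No probe sequence was at hand, so the part of each transcript that a probe reads is unknown here.

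Each value is a log2 ratio, cocaine over saline, after subtraction of the array's median, so that 0 is the median probe. This direction is likely but nowhere written out, and rests on cocaine being labelled as channel 1 throughout; if it ran the other way, every sign below would turn, and rose would read as fell. No dye swap is labelled, so a fixed dye difference of a probe remains in every group mean, although it cancels in adult minus fetal differences. Group means were tested against 0 with limma over 22567 probes at an adjusted p of 0.05, and a probe rose or fell only where it passed. Each SE is that of limma, from 1 spread per probe shared by the 4 groups and moderated across probes. It does not show how far the arrays of a single group lay apart. A ratio holds no level, so neither tissue identity nor the order of the genes by abundance could be checked. In bulk tissue fewer cells of a type and less RNA per cell cannot be told apart.

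Ratios of all probes followed a brightness score, built from the ratios since intensities were not at hand. The 10% of probes that scored lowest had a median of -1.16 and the 10% that scored highest 1.06 in adult occipital cortex, -1.53 and 1.33 in adult frontal, -0.64 and 0.55 in fetal occipital and -0.98 and 1.08 in fetal frontal cortex. Inferred position on the array explained between 2.92% and 47.9% of the variance of an array, most on fetal occipital replicate 1b. Array pairs of a group correlated over all probes at 0.22 to 0.86, and fetal occipital replicates 1 and 1b at 0.32.

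The AP-1 genes did not move together. In adult cortex, over both regions, Fosl2, Atf3 and 1 Fos probe rose and Fosb, Fosl1 and the other Fos probe fell. In fetal cortex Fosl2, Jun and the first Fos probe rose and Fosb and Fosl1 fell. Among means over both regions of an age, Fosl2 in adult cortex lay furthest above 0, at 3.18-fold in the likely direction, and the second Fos probe in adult cortex furthest below, at 2.37-fold; with the ratio turned these 2 would change places. Jund did not pass in any comparison of the centred ratios.

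In counts, 2 of the 9 probes rose and 1 fell in adult occipital cortex, where 48.2% of all probes passed, 24.1% higher and 24.1% lower. Adult frontal cortex had 2 higher and 3 lower, against 56.1% of all probes, 26.8% higher and 29.4% lower. Fetal occipital cortex had 1 higher and 0 lower, against 24.7% of all probes, 10.5% higher and 14.2% lower. Fetal frontal cortex had 1 higher and 2 lower, against 37% of all probes, 18.7% higher and 18.4% lower. Over both regions 3 rose and 3 fell in adult cortex, where 66.4% of all probes passed, 32.7% higher and 33.7% lower. Over both fetal regions 3 rose and 2 fell, where 49.2% passed, 23.5% higher and 25.7% lower. These shares lie near or under those of all probes, so the counts are no result about AP-1 genes as a set. The median of the 9 was 0.08 in adult and -0.14 in fetal cortex, beside -0.01 and -0.05 over all probes.

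**Figure D1:**
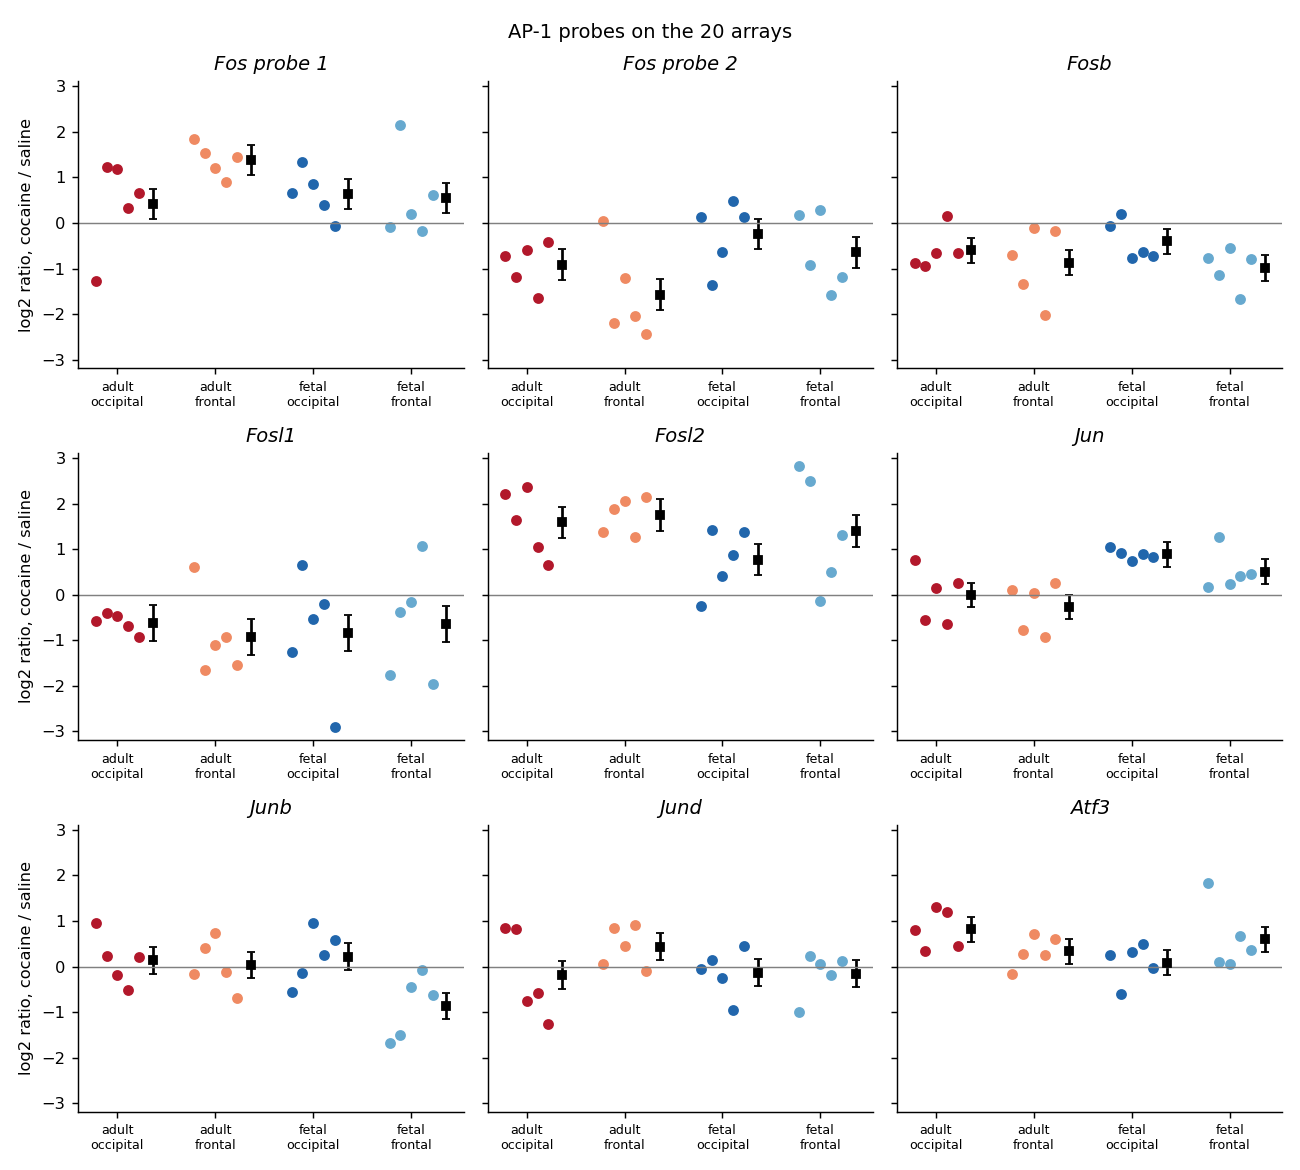
Log2 ratio of cocaine over saline (y axis) of the 9 AP-1 probes on each of the 20 arrays, by group (x axis). Circles are single arrays in order of replicate number, and the square with bar is the limma group mean with its SE (n = 5). Fosl2 lies above 0 on 18 arrays, Fosb below 0 on 18, and Jun above 0 on all 10 fetal arrays.

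The 2 Fos probes went opposite ways. Fos, the founding member of the family, was read by probe 2092, called the first here, and probe 4732, the second. On the first probe adult occipital arrays gave -1.26, 1.22, 1.17, 0.34 and 0.66, adult frontal arrays 1.84, 1.53, 1.21, 0.90 and 1.45, fetal occipital arrays 0.65, 1.35, 0.86, 0.41 and -0.07, and fetal frontal arrays -0.09, 2.16, 0.21, -0.17 and 0.62. All 5 adult frontal arrays were high, whereas the other 3 groups each held at least 1 array below 0 and overlapped with them. On the second probe adult occipital arrays gave -0.73, -1.18, -0.60, -1.65 and -0.42, adult frontal arrays 0.04, -2.20, -1.22, -2.03 and -2.45, fetal occipital arrays 0.14, -1.36, -0.63, 0.49 and 0.12, and fetal frontal arrays 0.17, -0.92, 0.28, -1.59 and -1.18. Here 9 of 10 adult arrays were below 0, against 5 of 10 fetal arrays.

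In adult occipital cortex the first Fos probe averaged 0.42 ± 0.33 (SE, n = 5) and did not pass (limma adjusted p = 0.288), and the second fell to -0.91 ± 0.33 (limma adjusted p = 0.0252), a call lost without adult occipital replicate 2 or 4 (limma adjusted p = 0.0769 and 0.118). In adult frontal cortex the first probe rose to 1.38 ± 0.33 (limma adjusted p = 0.000754) and the second fell to -1.57 ± 0.33 (limma adjusted p = 0.000269). The first probe's call there was lost with the brightness trend removed, though not with both trends removed. The second probe's was lost with both removed. In adult occipital cortex the second probe's call was also lost with arrays scaled to equal spread and with the brightness trend or both trends removed. In both fetal groups the means of the 2 probes also had opposite signs. The first probe had 0.64 ± 0.33 in fetal occipital and 0.55 ± 0.33 in fetal frontal cortex, the second -0.25 ± 0.33 and -0.65 ± 0.33, and none of these 4 values passed. Over both fetal regions the first probe passed, at 0.59 ± 0.23 (n = 10, limma adjusted p = 0.0345), a call lost without any 1 of fetal occipital replicates 1b and 3 and fetal frontal replicates 2 and 5, with limma adjusted p from 0.0558 to 0.154. The probes had opposite signs on 14 of 20 arrays, 8 of 10 adult and 6 of 10 fetal. Their gap, first minus second, had a median of 2.19 over adult and 0.97 over fetal arrays. Averaging both probes before the fit left -0.09 in adult frontal cortex and -0.17 over both adult regions, neither of which passed. No single direction can therefore be given for Fos transcript from these arrays.

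**Figure D2:**
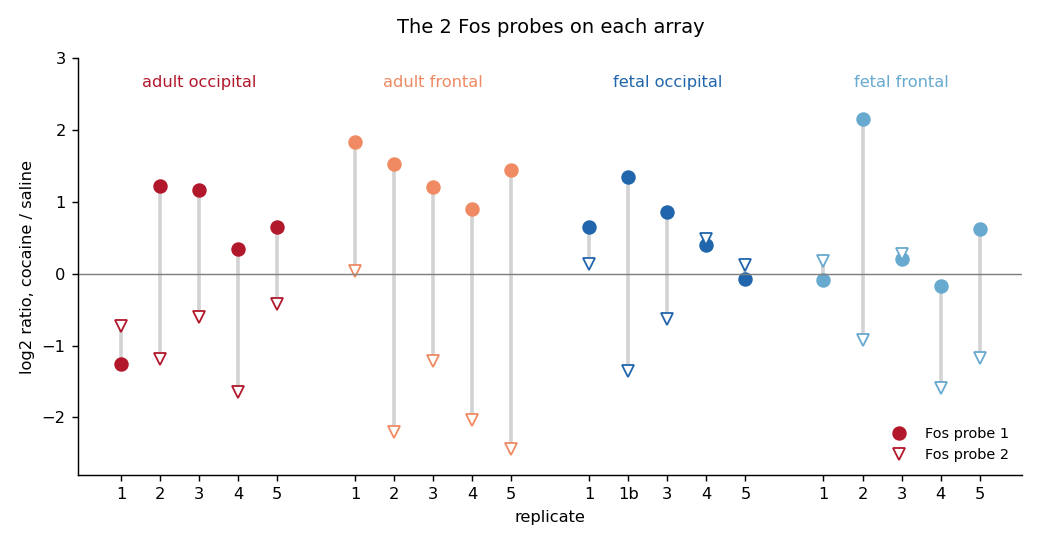
Log2 ratio of cocaine over saline (y axis) of the 2 Fos probes on each array (x axis, replicate number within each group). Filled circles are the first probe, open triangles the second, and a grey line joins the values of one array; the circle is above the triangle on 15 of 20 arrays, with the widest gap, 3.89, in adult frontal cortex.

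Fosb and Fosl1 stood below 0 in every group mean. Fosb, source of the stable splice form, gave -0.89, -0.94, -0.67, 0.15 and -0.67 on adult occipital, -0.70, -1.33, -0.11, -2.03 and -0.18 on adult frontal, -0.07, 0.20, -0.77, -0.65 and -0.73 on fetal occipital, and -0.77, -1.15, -0.56, -1.67 and -0.80 on fetal frontal arrays. It was below 0 on 18 of 20 arrays and the groups overlapped. In occipital cortex Fosb averaged -0.60 ± 0.28 in adults and -0.40 ± 0.28 in fetuses (SE, n = 5 each), and did not pass. It fell in adult frontal cortex, at -0.87 ± 0.28 (limma adjusted p = 0.00997), and in fetal frontal cortex, at -0.99 ± 0.28 (limma adjusted p = 0.00739). Over both regions it was -0.74 ± 0.20 in adult and -0.70 ± 0.20 in fetal cortex (limma adjusted p = 0.00181 and 0.00503), a difference between ages of -0.04 ± 0.28. The adult frontal call rested on replicates 2 and 4: without replicate 4 the mean was -0.58 (limma adjusted p = 0.104), and without replicate 2 it was -0.75 (limma adjusted p = 0.0501). It was also lost with the brightness trend or both trends removed (limma adjusted p up to 0.423). The fetal frontal call was lost under the same removals and with the sign of fetal frontal replicate 1 turned (limma adjusted p up to 0.204). Over both fetal regions the Fosb call was lost with that sign turned or the brightness trend removed (limma adjusted p up to 0.0895).

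Fosl1, which encodes Fra-1, a growth-factor-induced Fos protein without the activation domain of Fos, had the widest range of the family over the 20 arrays. Its values ran from -0.93 to -0.41 on adult occipital, from -1.64 to 0.62 on adult frontal, from -2.90 to 0.66 on fetal occipital and from -1.97 to 1.07 on fetal frontal arrays, with 17 of 20 below 0. It fell over both adult regions, at -0.77 ± 0.28, and over both fetal regions, at -0.74 ± 0.28 (n = 10 each, limma adjusted p = 0.0164 and 0.0288). The exact permutation test gave 0.00977 for the adult and 0.0859 for the fetal arrays, so the fetal call does not hold by that test. The adult frontal mean of -0.92 ± 0.39 passed narrowly (limma adjusted p = 0.0468) and lost its call under 21 of 39 alternatives. The adult occipital mean of -0.61 ± 0.39, with 5 of 5 arrays below 0, did not pass (limma adjusted p = 0.199). It passed under 1 of 39 alternatives, with only its own arrays fitted (limma adjusted p = 0.0343). The means of -0.84 ± 0.39 in fetal occipital and -0.64 ± 0.39 in fetal frontal cortex did not pass. Without fetal occipital replicate 5 the fetal mean was -0.48 (limma adjusted p = 0.138), and its call was also lost without fetal occipital replicate 1 or fetal frontal replicate 1 or 5 (limma adjusted p from 0.0566 to 0.0998).

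Fosl2, which encodes Fra-2, had the mean ratio furthest above 0 at both ages in the likely direction of the ratio, and the furthest below if it is turned. Adult occipital arrays gave 2.22, 1.65, 2.36, 1.06 and 0.66 and adult frontal arrays 1.39, 1.88, 2.05, 1.26 and 2.15. Fetal occipital arrays gave -0.24, 1.42, 0.41, 0.88 and 1.38 and fetal frontal arrays 2.83, 2.502, -0.14, 0.50 and 1.31. Every adult array was above 0, as were 4 of 5 in each fetal group, and the 2 ages overlapped. The mean was 1.59 ± 0.35 in adult occipital and 1.75 ± 0.35 in adult frontal cortex (SE, n = 5 each, limma adjusted p = 0.000899 and 0.000128), 3.01-fold and 3.35-fold. With the brightness trend removed these were 0.79 and 0.76, and with both trends removed 0.47 and 0.51, none of which passed (limma adjusted p from 0.0618 to 0.205). In fetal occipital cortex it was 0.77 ± 0.35, which did not pass (limma adjusted p = 0.0979), and in fetal frontal cortex 1.40 ± 0.35 (limma adjusted p = 0.00264). With the sign of fetal frontal replicate 1 turned, the fetal frontal mean was 0.27 (limma adjusted p = 0.714). Over both regions Fosl2 averaged 1.67 ± 0.24 in adults and 1.09 ± 0.24 in fetuses (n = 10 each). An exact permutation test that flips the sign of each array gave 0.00195, the smallest p that 10 arrays allow, in adults and 0.00781 in fetuses. With the sign of fetal frontal replicate 1 turned the fetal mean was 0.52 (limma adjusted p = 0.196). The adult mean passed under all 39 alternatives. Adult minus fetal was 0.58 ± 0.35 and did not pass (limma adjusted p = 0.24).

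Jun was the member whose ratio differed between ages. On adult occipital arrays it gave 0.76, -0.56, 0.15, -0.63 and 0.25 and on adult frontal arrays 0.10, -0.78, 0.03, -0.93 and 0.26, above 0 on 6 of 10. On fetal occipital arrays it gave 1.05, 0.93, 0.74, 0.90 and 0.82 and on fetal frontal arrays 0.18, 1.27, 0.24, 0.41 and 0.46, above 0 on 10 of 10. The fetal occipital arrays lay close together and above all adult arrays except adult occipital replicate 1, while adult and fetal frontal values overlapped.

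Adult minus fetal was -0.83 ± 0.26 for Jun over both regions (SE, 10 arrays each, limma adjusted p = 0.0322), from -0.13 ± 0.19 in adults and 0.70 ± 0.19 in fetuses. It was the only 1 of the 9 probes to pass, where 15.6% of all probes did, 7.13% higher and 8.49% lower. By region the difference was -0.89 ± 0.37 in occipital and -0.77 ± 0.37 in frontal cortex, neither passing. The fetal mean, 1.62-fold, had a limma adjusted p of 0.00299 and 0.00195 by the exact permutation test, the smallest 10 arrays allow. By group it passed in fetal occipital cortex at 0.88 ± 0.26 (limma adjusted p = 0.0157) and not in fetal frontal cortex at 0.51 ± 0.26 (limma adjusted p = 0.127). With fetal occipital replicates 1 and 1b left out together the fetal occipital mean was 0.82 (limma adjusted p = 0.0983).

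The neighbourhood of the Jun spot moved with Jun. The weighted mean of the spots around it, Jun itself included, was above 0 on 6 of 10 adult arrays, between -0.39 and 0.53, and on 10 of 10 fetal arrays, between 0.10 and 1.03. With the position trend removed from each array adult minus fetal was -0.43 ± 0.22 (limma adjusted p = 0.162) and the fetal mean 0.23 ± 0.15 (limma adjusted p = 0.22). With the brightness trend removed the difference was -0.97 ± 0.24 (limma adjusted p = 0.0128) and the fetal mean 0.42 ± 0.17 (limma adjusted p = 0.0595). The part of position in the Jun result was not tested further. Without any single 1 of adult occipital replicates 2 and 4, adult frontal replicates 2 and 4 and fetal frontal replicate 2 the difference was between -0.77 and -0.74, with adjusted p from 0.0551 to 0.0656.

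**Figure D3:**
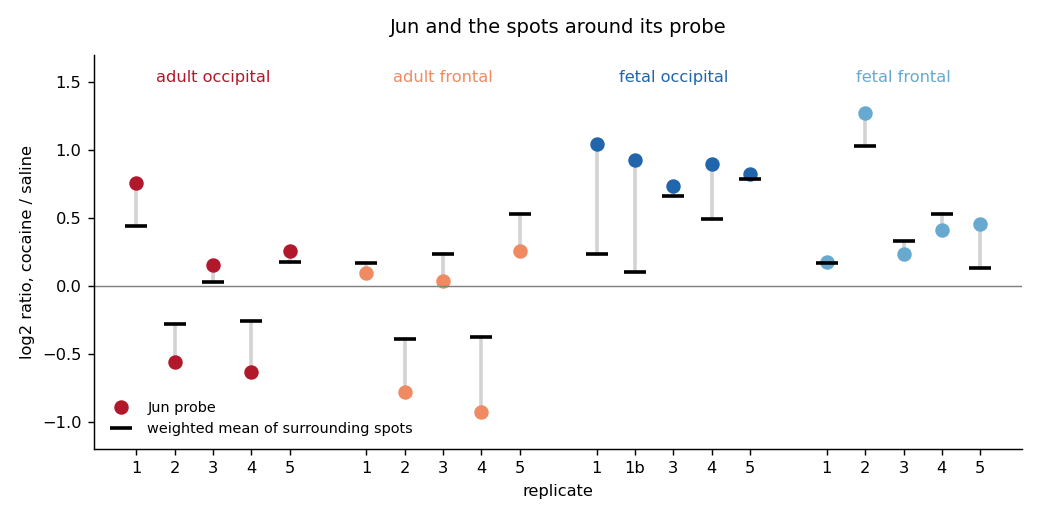
Log2 ratio of cocaine over saline (y axis) of Jun (circles) and of the weighted mean of the spots around its probe (black bars) on each array (x axis, replicate number within each group). On the adult arrays where Jun is lowest, replicates 2 and 4 of each region, the surrounding mean is also below 0, and on all 10 fetal arrays both lie above 0.

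Junb and Jund showed little. Junb, an immediate early Jun protein that often restrains Jun, gave -0.55, -0.14, 0.95, 0.26 and 0.59 on fetal occipital arrays, against -1.68, -1.49, -0.44, -0.07 and -0.61 on fetal frontal arrays, all of which were below 0. Its adult values ran from -0.52 to 0.96 in occipital and from -0.70 to 0.73 in frontal cortex, on both sides of 0. Only the fetal frontal mean passed, at -0.86 ± 0.29 (SE, n = 5, limma adjusted p = 0.0213). Without fetal frontal replicate 1 or 2 it was -0.66 and -0.70, with limma adjusted p of 0.109 and 0.108. With the sign of replicate 1 turned it was -0.19 (limma adjusted p = 0.74), and with the brightness trend removed -0.82 (limma adjusted p = 0.061). Fetal occipital minus frontal was 1.08 ± 0.41 for Junb and did not pass (limma adjusted p = 0.204). Jund ran from -1.26 to 0.92 over the 20 arrays, with 11 above 0. Its group means were -0.18 ± 0.30 in adult occipital, 0.44 ± 0.30 in adult frontal, -0.13 ± 0.30 in fetal occipital and -0.15 ± 0.30 in fetal frontal cortex, none of which passed.

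Atf3, the stress-induced member, rose in adult occipital cortex. It gave 0.80, 0.33, 1.31, 1.21 and 0.45 on adult occipital, -0.17, 0.27, 0.72, 0.26 and 0.61 on adult frontal, 0.25, -0.60, 0.32, 0.51 and -0.04 on fetal occipital, and 1.83, 0.09, 0.06, 0.66 and 0.36 on fetal frontal arrays. It was above 0 on 17 of 20 arrays, and the groups overlapped. The adult occipital mean was 0.82 ± 0.27 (SE, n = 5, limma adjusted p = 0.0148). Without replicate 3 or replicate 4 of that group it was 0.70 and 0.72, with limma adjusted p of 0.0708 and 0.0619. Adult frontal cortex had 0.34 ± 0.27, fetal occipital cortex 0.09 ± 0.27 and fetal frontal cortex 0.60 ± 0.27, and none passed. Over both adult regions Atf3 was 0.58 ± 0.19 (n = 10, limma adjusted p = 0.00927; exact permutation p = 0.00391), a 1.49-fold excess that passed under all 39 alternatives. Over both fetal regions it was 0.34 ± 0.19 and did not pass (limma adjusted p = 0.136).

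Regions did not differ for any member by limma. In adult occipital minus frontal cortex 0 of 9 probes passed, beside 0% of all probes. Unadjusted p was under 0.05 for 1 of the 9, beside 611 of all 22567 probes. In fetal occipital minus frontal cortex 0 passed, beside 0.0222% of all probes, and 1 had an unadjusted p under 0.05, beside 3504 of all probes. Robust regression also called 0 of 9 in both. Adult minus fetal gave 0 of 9 in occipital cortex, where 3.6% of all probes passed by limma, 2.51% higher and 1.09% lower. In frontal cortex it gave 0 of 9, where 0.0266% passed, 0.00443% higher and 0.0222% lower. Unadjusted p was under 0.05 for 1 of the 9 in occipital and 2 in frontal cortex, beside 5829 and 3171 of all 22567 probes. Robust regression called 1 and 0 of the 9, and its counts over all probes are given in the closing section. The interaction of age and region gave 0 of 9, beside 0% of all probes, and 0 of 9 by robust regression. Unadjusted p was under 0.05 for 0 of the 9, beside 897 of all probes. Group means ordered by size ran adult frontal, fetal occipital, fetal frontal and adult occipital for the first Fos probe. They ran adult frontal, adult occipital, fetal frontal and fetal occipital for Fosl2, fetal occipital, fetal frontal, adult occipital and adult frontal for Jun, and adult occipital, fetal frontal, adult frontal and fetal occipital for Atf3. Where neighbours in these orders differ by region or by age alone, their difference did not pass; other neighbours were not compared.

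Members were spread along the brightness trend. Fos probe 1 and Fosl2 lay at percentiles 85.9 and 85.5 of the score, where all probes had a median of 0.99 in adult and 0.63 in fetal cortex, and stood at 0.90 and 0.59 (Fos) and 1.67 and 1.09 (Fosl2). Fosb and Fos probe 2 lay at percentiles 30.1 and 30.2, where the medians were -0.49 and -0.31, and stood at -0.74 and -0.70 (Fosb) and -1.24 and -0.45 (Fos). Fosl1, at percentile 20.0, stood at -0.77 and -0.74 beside medians of -0.94 and -0.56. These 5 probes thus had the sign of their neighbours in brightness. Atf3, at percentile 40.1, did not: it stood at 0.58 and 0.34 where the medians were -0.24 and -0.16. Jund, at percentile 77.4, stood at 0.13 and -0.14 where the medians were 0.71 and 0.43.

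**Figure D4:**
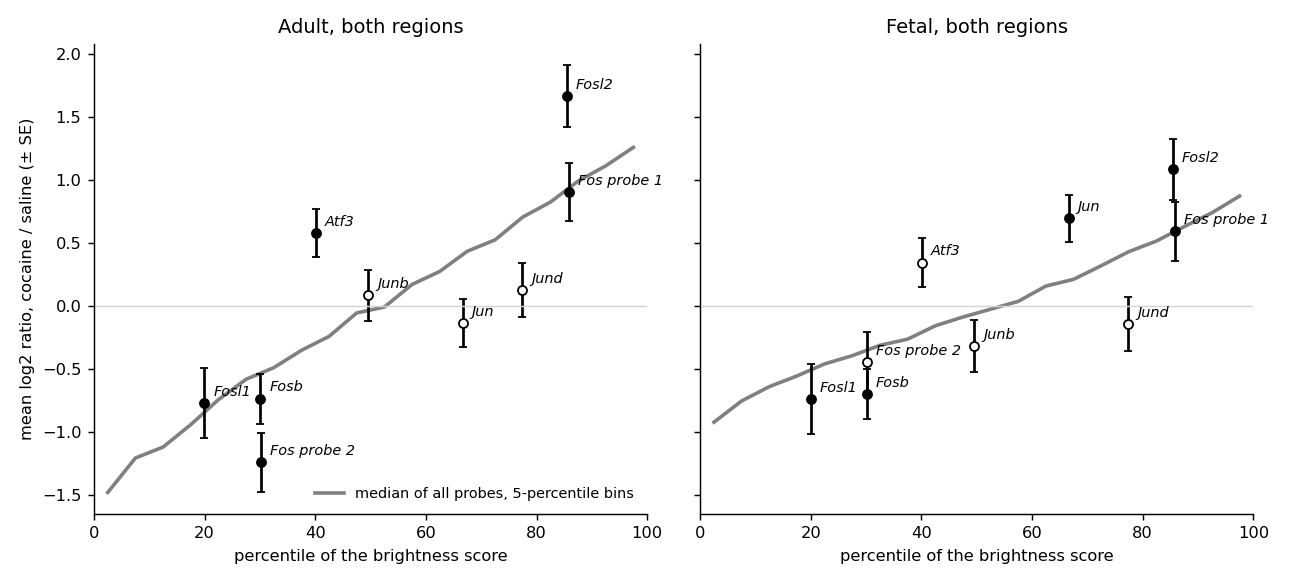
Mean log2 ratio of cocaine over saline with its SE (y axis, n = 10 arrays) of the 9 AP-1 probes against the percentile of their brightness score (x axis) in adult (left) and fetal (right) cortex. The grey line is the median of all probes in bins of 5 percentiles, filled circles passed by limma and open circles did not; Fosl2 and Atf3 lie above the line at both ages and Jund below it.

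With the brightness trend removed from each array, Fos probe 1 stood at 0.00 ± 0.23 in adult and -0.02 ± 0.23 in fetal cortex, Fosb at -0.20 ± 0.18 and -0.40 ± 0.18, and Fosl1 at 0.04 ± 0.29 and -0.29 ± 0.29, none of which passed. Fosl2 kept 0.77 ± 0.21 in adults (limma adjusted p = 0.0049) and stood at 0.48 ± 0.21 in fetuses (limma adjusted p = 0.0888). With the position trend removed instead, Fosb stood at -0.81 ± 0.17 in adults and -0.84 ± 0.17 in fetuses and passed at both ages. Under removal of brightness Fos probe 2 kept -0.72 ± 0.22 in adults (limma adjusted p = 0.0124), but with both trends removed it stood at -0.43 ± 0.20 there and did not pass (limma adjusted p = 0.0846). With the brightness trend alone removed Atf3 was 0.86 ± 0.18 in adults and 0.49 ± 0.18 in fetuses (limma adjusted p = 0.000568 and 0.0418). In that setting Jund, which had not passed, stood at -0.56 ± 0.20 in adults and -0.60 ± 0.20 in fetuses. Jund passed there at both ages (limma adjusted p = 0.0246 and 0.0242). Jun in adults stood at -0.54 ± 0.17 in the same setting (limma adjusted p = 0.0123). With both trends removed Fosl2 stood at 0.49 ± 0.19 and 0.57 ± 0.19 and Atf3 at 0.81 ± 0.16 and 0.54 ± 0.16 in adults and fetuses, and all 4 values passed. What gives rise to the trend with brightness was not tested.

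**Figure D5:**
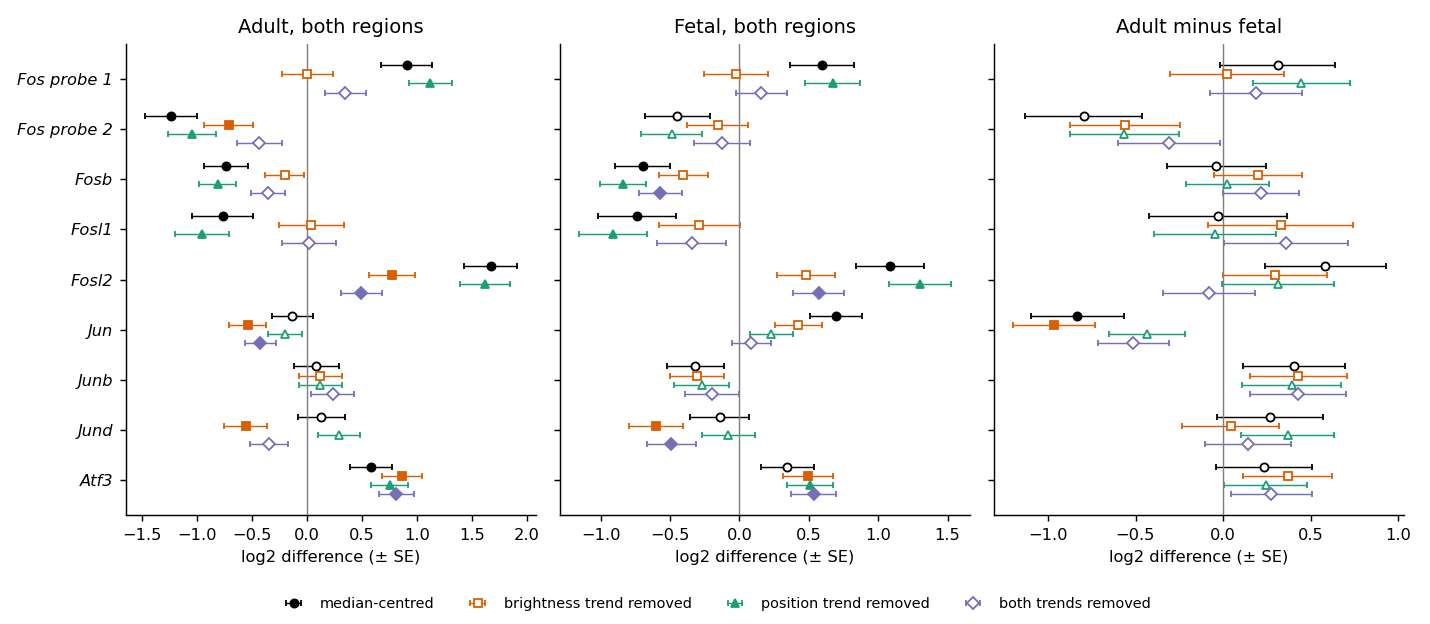
Log2 mean ratios or differences with their SE (x axis) of the 9 AP-1 probes (y axis) over both adult regions (left), over both fetal regions (middle) and for adult minus fetal (right), as median-centred and with trends removed from each array. Filled symbols passed by limma; Fosl2 and Atf3 in adults are filled in all 4 settings, and Jun in the adult minus fetal panel is filled with centring alone and with the brightness trend removed.

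Related leucine zipper factors went both ways. In this and the following lists a gene passed if any of its probes did, whereas shares of all probes count single probes. Of 28 measured AP-1 partners and relatives 14 rose, 7 fell and 7 did not pass in adult cortex, with a median of 0.42, and 10 rose, 4 fell and 14 did not pass in fetal cortex, with a median of 0.16. The list's shares of 75% and 50% stand beside 66.4% of all probes in adults (32.7% higher, 33.7% lower) and 49.2% in fetuses (23.5% higher, 25.7% lower), and the medians of all probes were -0.01 and -0.05. In adults Atf2, a partner of Jun, stood at 1.89 ± 0.26, the endoplasmic reticulum stress factor Atf6 at 1.55 ± 0.19 and Creb3 at 1.36 ± 0.23, each above 0 on 10 of 10 arrays. The lowest p among falls were of Crem, a cyclic AMP-responsive factor (-1.18 ± 0.21), Cebpd (-1.204 ± 0.22) and Batf, which pairs with Jun in lymphocytes (-1.64 ± 0.31). In fetuses Ddit3, a stress factor known as CHOP, stood at 1.29 ± 0.19, Cebpg at 1.14 ± 0.19 and Jdp2, which represses AP-1, at 1.20 ± 0.21, while Cebpd stood at -1.89 ± 0.22 and Atf7 at -0.72 ± 0.18 and -0.81 ± 0.22 on its 2 probes. The 6 named rises lay at brightness percentiles from 70.7 to 92.9 and the named falls from 17.8 to 40.7, so these too had the sign of the trend, and its part was not tested.

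Upstream of AP-1, 10 of 27 measured kinases and factors rose, 5 fell, 1 had probes that disagreed and 11 did not pass in adults, with a median of 0.18. In fetuses 7 rose, 4 fell and 16 did not pass, with a median of -0.08. Its shares of 59.3% and 40.7% lay under the 66.4% and 49.2% of all probes, so these counts are no result about the list. Prkaca, a catalytic subunit of cyclic AMP-dependent kinase, stood at 1.702 ± 0.24 in adults and 1.44 ± 0.24 in fetuses. Its relative Prkacb stood at 1.22 ± 0.23 and the JNK scaffold Mapk8ip1 at 1.19 ± 0.20 in adults, and the neuronal JNK gene Mapk10 at 1.02 ± 0.23 and the Jun-degrading ubiquitin ligase subunit Fbxw7 at 0.90 ± 0.23 in fetuses. Gsk3b, a kinase that marks Jun for degradation, stood at -1.48 ± 0.23 in adults and -1.17 ± 0.23 in fetuses on 1 probe, whereas its other probe had -0.31 ± 0.27 and 0.28 ± 0.27 and did not pass. Braf fell by 1.26 ± 0.22 on 1 probe in adults and stood at -0.0029 ± 0.24 on the other. Rps6ka3, a CREB kinase, stood at -1.21 ± 0.25 in adults, and Map3k1 at -1.13 ± 0.25 and Elk4, which acts on the Fos promoter with serum response factor, at -1.08 ± 0.34 in fetuses. Named probes that rose lay at brightness percentiles from 48.8 to 92.5 and those that fell from 2.6 to 30.9. All probes had a median of -1.48 in adults at the percentile of Rps6ka3 and -0.92 in fetuses at that of Map3k1. The part of the trend was not tested.

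Dual-specificity phosphatases, which switch off the kinases that activate AP-1, had 6 of 10 higher, 1 lower, 1 with disagreeing probes and 2 not passing in adults (median 0.56), and 3 higher, 3 lower and 4 not passing in fetuses (median -0.21). With 10 genes its shares were 80% and 60%. Of all probes 66.4% passed in adults, 32.7% higher and 33.7% lower, and 49.2% in fetuses, 23.5% higher and 25.7% lower. In adults Dusp7 stood at 1.16 ± 0.19, Dusp6 at 1.03 ± 0.18 and Dusp8 at 1.24 ± 0.25 and 1.04 ± 0.21 on its 2 probes, against Dusp10 at -1.24 ± 0.26. Dusp4 disagreed, with 0.61 ± 0.25 and -0.79 ± 0.24 on its 2 probes in adults. In fetuses Dusp1, itself an immediate early gene, stood at 0.72 ± 0.20, Dusp5 at 0.68 ± 0.18 and Dusp8 at 1.18 ± 0.21 on 1 of 2 probes, against Dusp10 at -1.12 ± 0.26, Dusp16 at -0.63 ± 0.23 and 1 Dusp4 probe at -0.95 ± 0.24. The probes named as higher lay at brightness percentiles from 55.3 to 98.8 and those named as lower from 7.4 to 26.5, and the part of the trend was not tested.

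Genes known as targets of AP-1 or ΔFosB went both ways. Of 34 measured, 9 rose, 9 fell and 16 did not pass in adults, with a median of -0.19, and 9 rose, 7 fell and 18 did not pass in fetuses, with a median of 0.08. The shares of 52.9% and 47.1% lay under the 66.4% and 49.2% of all probes, so these counts are no result about the list. Among them the metal-binding Mt1 stood at 1.37 ± 0.24 in adults and 1.06 ± 0.24 in fetuses, and the cell cycle gene Ccnd1 at 1.08 ± 0.19 and the synaptic kinase Camk2a at 1.10 ± 0.21 in adults. The neuropeptide gene Npy, at 1.39 ± 0.21, and the collagenase Mmp13, at 0.89 ± 0.20, rose in fetuses. The cytokine Il6 stood at -1.66 ± 0.23 and -0.99 ± 0.23, and the quinone reductase Nqo1 at -1.52 ± 0.20 and -0.79 ± 0.20, in adults and fetuses. The matrix protease Mmp10 stood at -0.999 ± 0.22 in adults and the haem oxygenase Hmox1 at -0.78 ± 0.20 in fetuses. The named rises lay at brightness percentiles from 71.6 to 92.8 and the named falls from 10.9 to 47.3. At the percentile of Nqo1 all probes had a median of -1.12 in adults and -0.64 in fetuses. The part of the trend was not tested.

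Other immediate early genes went both ways as well. Of 32 measured, 10 rose, 10 fell and 12 did not pass in adults (median 0.15), and 8 rose, 10 fell and 14 did not pass in fetuses (median -0.14). The shares of 62.5% and 56.2% stand near the 66.4% and 49.2% of all probes. The named rises lay at brightness percentiles from 80.4 to 99.8 and the named falls from 6.6 to 33.9, and the part of the trend was not tested. Nr4a2 stood at 1.49 ± 0.21 in adults and 0.71 ± 0.21 in fetuses, and Npas4, a neuronal activity factor, at -1.01 ± 0.22 and -1.26 ± 0.22. Ppp1r15a (1.40 ± 0.20) and Nr4a1 (1.29 ± 0.22) rose and Klf2 (-1.48 ± 0.20), Ccn1 (-1.14 ± 0.19) and Myc (-1.06 ± 0.21) fell in adults. In fetuses the NF-kB inhibitor Nfkbia (1.17 ± 0.26) and the clock gene Per1 (0.74 ± 0.19) rose, and Gadd45b (-1.36 ± 0.27) and Zfp36, which destabilises short-lived transcripts (-0.90 ± 0.19), fell. In adult minus fetal 5 of the 32 were higher and 1 was lower, a share of 18.8% beside 15.6% of all probes. Ier3, the 1 lower, stood at -1.31 ± 0.29 (limma adjusted p = 0.00668), the same sign as Jun. Arc and Egr1, which share cyclic AMP and serum responses with Fos, were among the 5 higher, at 1.01 ± 0.28 and 0.96 ± 0.30 (limma adjusted p = 0.0178 and 0.0293). These 3 genes were chosen after their values were seen.

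Likeness was measured as the Pearson correlation of log2 ratios over the 20 arrays, against 18198 probes with 1 symbol. For Jun the highest were Rab32 (0.93), Wnt5a (0.93) and Cxcl2 (0.90), which lay within 13 rows of Jun on a layout of 105 rows and within 63 columns. For the first Fos probe they were Sppl2c (0.87), Smap1 (0.83) and Col11a2 (0.83), within 5 rows and 22 columns. Fosb was most like Ccrl2 (0.85), Duoxa2 (0.85) and Cmah (0.83), within 18 rows and 71 columns, and Junb like Ptk2b (0.80), Spi1 (0.79) and Gsto2 (0.79), within 70 rows and 46 columns. The arrays of a group share tissue, labelled dye orientation and position trends, so these values are descriptions. By Spearman's coefficient Rab32 (0.93) led for Jun, Sppl2c (0.86) for Fos, Cep89 (0.83) for Fosb and Rnf208 (0.76) for Junb.

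Cell type markers were read against the shares of all probes. Of these 66.4% passed in adults, 32.7% higher and 33.7% lower, and 49.2% in fetuses, 23.5% higher and 25.7% lower. Of 12 measured cortical neuron markers 9 rose and 0 fell in adults and 6 rose and 0 fell in fetuses. These shares of 75% and 50%, all in 1 direction, exceeded the shares of all probes that were higher. The median ratio of these probes on an array ran from 0.59 to 1.48 in adult occipital, from 0.62 to 1.47 in adult frontal, from 0.09 to 1.13 in fetal occipital and from 0.61 to 1.89 in fetal frontal cortex. Of 9 oligodendrocyte markers 5 rose and 0 fell in adults and 4 rose and 2 fell in fetuses. Of 12 radial glia and astrocyte markers 5 rose and 2 fell in adults and 2 rose and 1 fell in fetuses. Microglia and macrophage markers had 4 higher and 2 lower of 8 in adults and 2 higher and 3 lower in fetuses, and endothelial and mural markers 4 higher and 2 lower of 9 and 1 higher and 3 lower. Meninges and choroid plexus markers had 1 higher and 4 lower of 8 in adults and 0 higher and 3 lower in fetuses, red blood cell markers 2 higher and 3 lower of 5 and 0 higher and 1 lower, and striatal markers 2 higher and 1 lower of 6 and 1 higher and 4 lower. The neuron markers lay at a median brightness percentile of 74.3, where all probes had a median of 0.53 in adults and 0.32 in fetuses. The list itself had medians of 0.97 and 0.73, and the part of the trend was not tested. The other lists had between 50% and 100% called in adults and between 20% and 83.3% in fetuses, on 5 to 12 genes each. The part of these cell types in the AP-1 ratios was not tested.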

How the data were processed

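The deposited table holds log2 ratios, 1 column per array. Per the labels' protocols RNA was reverse transcribed and detected with 3DNA dendrimers; the sources used here do not name scanner, image software or normalization. That the deposited unit is log2 was checked on 565 ratios of 82 dim spots: 95.9% were quotients of whole numbers up to 20 as log2, against 36.1% as natural log and 57.3% as log10. Array medians lay between -0.26 and 0.32. Each array's maximum, from 15.51 to 17.37 and found on 6 to 27 probes, was set as missing, and 1368 exact 0 values were kept. The number of arrays limits the precision, as do the brightness and position trends and the lack of a labelled dye swap, and signal over background is unknown.

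Arrays were median-centred and 22567 probes with at least 3 values per group were kept. All 20 arrays entered a limma model (3.58.1, R 4.3.3) with 1 mean for each of the 4 groups, with Benjamini-Hochberg adjustment over all probes. The fit and the brightness score were tried on simulated data, with the outcome not given here. The score was not checked against measured intensities, which were not at hand. The score came from the smallest whole numbers up to 400 that give a ratio within 0.001; its trend was removed by lowess (span 0.3), and position by a Gaussian mean (SD 6 spots) on an inferred layout of 105 rows. Names came from the platform annotation: 18218 probes have 1 symbol, 16 several and 4341 none, and 0 symbols changed through RefSeq. The members and lists were chosen with earlier results of these data known. Named genes were all member probes, up to 3 probes per list, age and direction by p, and the 3 probes most correlated with Fos, Fosb, Jun and Junb. With 5 arrays the exact permutation test cannot go below 0.0625. The labels do not say that a title number marks shared animals. Deviations of same-numbered occipital and frontal arrays correlated at -0.08 to 0.38 in adults, with 1 of 5 pairs above 0.1, and at -0.13 to 0.01 in fetuses, so the numbers were not taken as pairs. P-values over the 10 arrays of an age take them as independent; if both regions came from the same animals there would be 5 units, for which the exact test cannot go below 0.0625.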

Additional observations from a re-analysis of the deposited data

Results flagged for a closer look

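Of 36 sets of 5 arrays checked, 9 probes in 4 groups, 2 held an array far from the other 4, and chance alone gives about 1 in 20. Fosb on adult occipital replicate 4 was at 0.145, with the nearest of the other 4 at -0.67. Jun on fetal frontal replicate 2 was at 1.27, with the nearest at 0.46. The Jun ratio also differed between ages, by -0.83 for adult minus fetal over both regions (limma adjusted p = 0.0322). It was the only such difference among the 9 probes, where 15.6% of all probes passed. Its call was lost with the position trend or both trends removed, and without any single 1 of several arrays.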

How the results depend on the processing

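The fit was repeated under up to 39 alternatives. Over 4194 values of single probes 4048 kept their call or lack of one, 95 lost the call, 45 gained it and 6 turned round. Fosl2 and Atf3 over both adult regions passed in every one. The 6 were Fos probe 1 with both probes averaged, at -0.093 in adult frontal and -0.17 in adult cortex, and with the brightness trend removed, at -0.022 in fetal cortex; Fosl1 in adult cortex, at 0.038 with the brightness trend and 0.016 with both trends removed; and Jund in adult cortex, at -0.56 with the brightness trend removed. Among the 4048 were 154 values that passed in neither fit and changed sign. The cause of these changes was not tested.

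As reported, 3, 5, 1 and 3 AP-1 probes passed in adult occipital, adult frontal, fetal occipital and fetal frontal cortex, 6 over adult and 5 over fetal regions, 1 in adult minus fetal and 0 in the other differences. Counts that moved by over 1.5 times follow. Without centring all probes gave 9 calls in fetal occipital minus frontal and 1430 and 17 in occipital and frontal adult minus fetal. With equal spread, fetal occipital cortex had 2 AP-1 calls, and all probes 361 in fetal occipital minus frontal and 1281, 1 and 1873 in occipital, frontal and mean adult minus fetal. Quantile normalization gave 3 AP-1 calls in fetal occipital cortex and 1 in occipital adult minus fetal, and over all probes 287 in fetal occipital minus frontal and 2687 and 2 in occipital and frontal adult minus fetal. With the brightness trend removed AP-1 calls were 2 in adult frontal, 0 in fetal occipital, 1 in fetal frontal and 2 in fetal cortex, and calls over all probes 3228 in adult occipital, 5271 in adult frontal, 1916 in fetal frontal, 8884 in adult and 6079 in fetal cortex, 1 in fetal occipital minus frontal and 3 in frontal adult minus fetal. With the position trend removed AP-1 calls were 5 in adult occipital, 2 in fetal occipital, 5 in fetal frontal cortex and 0 in adult minus fetal, and over all probes 3124 in fetal occipital cortex, 0 in fetal occipital minus frontal and 452 and 83 in occipital and frontal adult minus fetal. With both removed AP-1 calls were 1 in adult occipital, 3 in adult frontal, 0 in fetal occipital, 1 in fetal frontal and 3 in adult cortex and 0 in adult minus fetal; all probes gave 4291, 6549, 1451 and 2786 in the 4 groups, 5063 in fetal cortex, 0 in fetal occipital minus frontal and 311, 73 and 2119 in occipital, frontal and mean adult minus fetal. Array maxima kept as values gave 0 in fetal occipital minus frontal, and exact 0 as missing 8 there and 3 in frontal adult minus fetal.

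With fetal frontal replicate 1 turned in sign AP-1 calls were 0 in fetal frontal and 1 in fetal cortex, and over all probes 9 and 6826, with 0 in fetal occipital minus frontal and 130 and 1 in occipital and frontal adult minus fetal. Fetal occipital replicates 1 and 1b left out together gave 0 AP-1 calls in fetal occipital cortex and in adult minus fetal, and over all probes 3646 and 2315, with 0 in fetal occipital minus frontal and 171 in occipital adult minus fetal. Array weights gave 104 in fetal occipital minus frontal and 3239 and 12 in occipital and frontal adult minus fetal. Robust regression gave 5 AP-1 calls in adult occipital and 2 in fetal occipital cortex and 1 and 2 in occipital and mean adult minus fetal, and over all probes 696 in fetal occipital minus frontal, 4310, 1397 and 6886 in occipital, frontal and mean adult minus fetal and 1 in the interaction. Only the arrays of a comparison gave 5 AP-1 calls in adult occipital and 3 in fetal cortex, and over all probes 1743 in fetal occipital cortex, 0 in fetal occipital minus frontal and 1 in frontal adult minus fetal. Averaged probes gave 2 AP-1 calls in adult frontal cortex. A threshold of 0.1 gave 2 AP-1 calls in fetal occipital cortex and 2 in adult minus fetal, and over all probes 157 in fetal occipital minus frontal and 2817, 44 and 5588 in occipital, frontal and mean adult minus fetal.

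The replicate block changed no AP-1 count and gave over all probes 0 in fetal occipital minus frontal and 203 in occipital adult minus fetal; the numbers were not taken as pairs. A random replicate block of the number within each age, chosen after seeing the data, had a consensus correlation of 0.015, changed no AP-1 call and gave 8 over all probes in fetal occipital minus frontal. Leaving out 1 array at a time, AP-1 calls ran from 2 to 4 in adult occipital, 3 to 5 in adult frontal, 1 to 2 in fetal occipital and 2 to 3 in fetal frontal cortex, 3 to 5 over fetal regions and 0 to 2 in adult minus fetal. Calls over all probes ran from 8575 to 11195, 10789 to 12914, 3109 to 5938 and 5243 to 8686 in the 4 groups, from 0 to 182 in fetal occipital minus frontal, and from 1 to 1254, 1 to 84 and 2226 to 4267 in occipital, frontal and mean adult minus fetal.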
